A study of Homo sapiens with 16 samples.

Results

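The genes described here are 9 regulators and effectors of the epithelial-mesenchymal transition. They were chosen by name: the transcription factors ZEB2, TWIST1, TWIST2, SNAI1 and SNAI2, the intermediate filament vimentin (VIM), E-cadherin (CDH1), N-cadherin (CDH2) and fibronectin (FN1). Each was read from the transcript cluster (the array's probe set for a gene) that is annotated to that symbol alone, and from the cluster with the highest mean where there were several. This gave values for 8 of the 9 genes, out of 18377 genes on the same array, and TWIST2 was not analysed here. The tumours were grown from BT474, a human breast cancer line with amplified HER2 (ERBB2), orthotopically in mice without a full immune system. All cells carried a lentiviral vector from which doxycycline induces a microRNA hairpin. The hairpin was SHP2 miR1 in 7 tumours, SHP2 miR2 in 3 tumours and a control hairpin, CTRL miR, in 6 tumours. Doxycycline was given in the drinking water (2 g per L) for 30 days in all groups, so the controls were exposed to it as well. PTPN11 encodes SHP2, a phosphatase that acts downstream of growth factor receptors such as HER2 and is needed for full activity of RAS and ERK. RNA came from whole dissected tumours, which also hold mouse cells of the host, and was measured on 1 human array per tumour.

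In the epithelial-mesenchymal transition, epithelial cells lose E-cadherin contacts and take up a motile, mesenchymal form. The zinc finger factors SNAI1, SNAI2, ZEB1 and ZEB2 and the basic helix-loop-helix factors TWIST1 and TWIST2 drive it. SNAIL and ZEB proteins repress CDH1 through E-boxes, short DNA motifs with the letters CANNTG, and prefer the forms CACCTG and CAGGTG. N-cadherin, vimentin and fibronectin are the usual mesenchymal products. BT474 is a luminal line that forms E-cadherin junctions, and vimentin, TWIST1, ZEB2 and fibronectin are also made by fibroblasts and macrophages of a tumour's stroma.

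RefSeq promoters (GRCh38.p14) were at hand for ZEB2, TWIST2, VIM, CDH2 and FN1. Those of the mesenchymal genes CDH2 and VIM, which moved together among the controls, and of ZEB2, which differed between the hairpins, are shown as the 250 bases before the annotated start, 5′ to 3′ on the gene's strand, with CANNTG in capitals.
CDH2 promoter, chr18:28177131-28177380, minus strand: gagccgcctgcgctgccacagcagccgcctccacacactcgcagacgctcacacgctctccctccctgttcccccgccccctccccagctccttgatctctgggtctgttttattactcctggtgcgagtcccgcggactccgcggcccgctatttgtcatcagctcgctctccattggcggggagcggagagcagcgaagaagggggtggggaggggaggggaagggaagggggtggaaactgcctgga
VIM promoter, chr10:17227991-17228240, plus strand: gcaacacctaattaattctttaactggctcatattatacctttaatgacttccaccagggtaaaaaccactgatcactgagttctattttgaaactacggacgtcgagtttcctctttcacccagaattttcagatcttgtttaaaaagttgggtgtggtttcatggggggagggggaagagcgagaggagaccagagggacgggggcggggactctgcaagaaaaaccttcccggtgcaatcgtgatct
ZEB2 promoter, chr2:144520120-144520369, minus strand: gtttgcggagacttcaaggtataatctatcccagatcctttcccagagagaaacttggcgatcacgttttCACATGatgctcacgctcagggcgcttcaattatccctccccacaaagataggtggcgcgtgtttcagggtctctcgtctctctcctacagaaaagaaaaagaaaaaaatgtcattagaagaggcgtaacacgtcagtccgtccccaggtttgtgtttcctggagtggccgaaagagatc
The ZEB2 window holds 1 CANNTG motif, CACATG, whose first base lies at -180 from the start. The CDH2 and VIM windows hold 0. CANNTG reads the same on both strands and occurs in 62.2% of 27305 promoter windows of this length. The forms CACCTG and CAGGTG are each other's reverse complement and are included in CANNTG. They occur in 17.5% of the windows and in 0 of the 5 at hand. A match, or the lack of one in this window, is a description of letters only.

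Values are log2 signals. Array medians lay between 5.21 and 5.41, lower quartiles between 3.72 and 4.04 and upper quartiles between 6.7 and 7.0. Differences are in log2 units with standard errors (SE) and 95% intervals from limma, fitted to 18377 genes in 3 groups. P-values were adjusted after Benjamini-Hochberg over all genes, with 0.05 as the threshold below which a gene is said to be called, or to have passed. The labels number the tumours without tying them to animals, so the p-values measure the spread between these tumours. PTPN11 had 6.59 to 7.18 with SHP2 miR1 and 6.34 to 6.53 with SHP2 miR2, against 8.23 to 8.61 in the controls. Expression of the luminal markers KRT8, KRT18, KRT19, EPCAM, GATA3 and ERBB2 was high in all 16 tumours (mean of the 6 between 10.06 and 10.71). Of the controls, tumours 1, 3, 4 and 6 stood apart, with 7.14 to 8.29 for IRS4, an insulin receptor adaptor, against 2.97 to 3.91 in the other 12 tumours. Results are therefore also given against control tumours 2 and 5 alone. Since the controls were divided by their expression in these data, p-values against either part alone are descriptive. The arrays also fell into a set A of 7 and a set B of 9 by the mean of 5 noncoding RNAs (set A 8.19 to 8.39, set B 6.81 to 7.21), and all SHP2 miR2 tumours were in set B.

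TWIST1 was higher in SHP2 miR2 tumours than in every other tumour. Its log2 signal was 7.05, 7.29 and 7.18 in the 3 SHP2 miR2 tumours. It was 6.22, 6.26, 6.37 and 6.44 in control tumours 3, 1, 6 and 4, and 6.27 and 6.14 in control tumours 2 and 5. The 3 tumours therefore lay above all controls, and above all 7 SHP2 miR1 tumours as well. Of all genes, 3.29% had all SHP2 miR2 tumours above the other 13 and 8.1% had all of them below. TWIST1 was the only one of the 8 measured members above, and the other 7 overlapped. With SHP2 miR2 TWIST1 rose by 0.89 ± 0.095 (SE, 95% interval 0.70 to 1.09, limma adjusted p = 3.56e-06), or 1.86-fold. The rise was 0.97 (adjusted p = 0.000128) against control tumours 2 and 5 alone and 0.86 (adjusted p = 0.00185) within set B. It passed under all 27 alternatives computed, leaving out each tumour among them, with 0.80 to 1.1. In whole tumours, more cells that express a gene and more RNA per cell cannot be told apart.

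With SHP2 miR1 TWIST1 did not pass. It ranged from 6.26 to 6.49 with a median of 6.46, against 6.14 to 6.44 with a median of 6.26 in the controls, and the groups overlapped. The difference was 0.14 ± 0.074 (SE, 95% interval -0.014 to 0.30, limma adjusted p = 0.332). In order of level, SHP2 miR2 came first, followed by SHP2 miR1 and the controls, and the last pair did not differ beyond their spread.

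ZEB2, a zinc finger repressor of CDH1 and a regulator of macrophage and neural crest development, was also higher with SHP2 miR2. Its log2 signal was 6.78, 5.91 and 6.47 in SHP2 miR2 tumours 1, 2 and 3. In the controls it was 5.43, 6.01, 5.52 and 6.18 in tumours 1, 3, 4 and 6, and 5.06 and 5.2 in tumours 2 and 5. SHP2 miR2 tumour 2 lay within the range of the controls and the other 2 lay above it. The rise was 0.82 ± 0.22 (SE, 95% interval 0.36 to 1.28, limma adjusted p = 0.0107), or 1.77-fold. Against control tumours 2 and 5 alone it was 1.26 ± 0.22 (SE, adjusted p = 0.00208). The call was lost without SHP2 miR2 tumour 1 (0.62, adjusted p = 0.0921), without SHP2 miR2 tumour 3 (0.78, adjusted p = 0.0587) and within set B alone (0.75, adjusted p = 0.0575).

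With SHP2 miR1, ZEB2 had 4.86 to 5.52 with a median of 5.40, and the difference from all controls was -0.28 ± 0.17 (SE, limma adjusted p = 0.439). It was 0.16 (adjusted p = 0.923) against control tumours 2 and 5 and -0.50 (adjusted p = 0.0396) against control tumours 1, 3, 4 and 6, so its sign turned with the choice of controls. A further ZEB2 cluster, which did not enter the tests, had 2.33 to 2.57 with SHP2 miR2, 2.06 to 2.38 with SHP2 miR1 and 2.21 to 2.92 in the controls. It lay below the lower quartile of the array in all 16 tumours and did not show the order of the main cluster.

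Macrophage markers were also higher in SHP2 miR2 tumours. The mean log2 signal of 6 markers (PTPRC, CD68, CSF1R, LYZ, AIF1 and CD163) was 4.86, 4.50 and 4.82 in SHP2 miR2 tumours 1, 2 and 3. It was 4.30 to 4.48 with SHP2 miR1, and in the controls 3.97 to 4.27 in tumours 1, 3, 4 and 6 and 4.33 to 4.43 in tumours 2 and 5. The SHP2 miR2 tumour with the least ZEB2 had the lowest marker mean of the 3. SHP2 miR2 tumours 1 and 3 also had the highest array medians (5.41 each) and lower quartiles (4.01 and 4.04). Tumour 2 had 5.32 and 3.87. The part of these array differences in the marker means was not tested. Among the controls the order ran the other way, since tumours 1, 3, 4 and 6 had more ZEB2 and lower marker means than tumours 2 and 5. Of the 6 markers, 4 rose with SHP2 miR2 and 0 fell. This and the marker counts below are read beside 11.8% of all genes that rose and 18.2% that fell. Among the 4 were LYZ, the antibacterial enzyme of myeloid cells (0.89, limma adjusted p = 0.000134), and PTPRC, the leukocyte phosphatase CD45 (0.66, adjusted p = 0.000384). PTPRC itself was low, with 3.57 to 4.06 in SHP2 miR2 tumours and 3.11 to 3.38 in the controls. In all SHP2 miR2 tumours 1 of the 6 markers lay below the lower quartile of the array, against 3 of the 6 in all controls. Of 10 fibroblast markers, 6 rose and 0 fell with SHP2 miR2, and COL1A2, a chain of type I collagen, rose by 0.78 (adjusted p = 0.000299). Their list mean was 5.21 to 5.35 with SHP2 miR2 and 4.90 to 5.15 with SHP2 miR1, against 4.63 to 5.03 in the controls. With control tumours 2 and 5 as the only controls, where TWIST1 and ZEB2 passed with SHP2 miR2, 1 of the 6 macrophage markers (LYZ, 0.63, adjusted p = 0.0155) and 1 of the 10 fibroblast markers (COL1A2, 0.59, adjusted p = 0.0414) rose. The share of all genes that rose with those controls was 1.39%. Of 6 endothelial markers 1 rose (VWF, 0.30, adjusted p = 0.0466) and 0 fell with SHP2 miR2, and of 5 measured skeletal muscle markers 0 passed. Mouse transcripts can be read by this human array only where they hybridise to its probes, and the part of host cells in the ZEB2 and TWIST1 results was not tested.

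**Figure D1:**
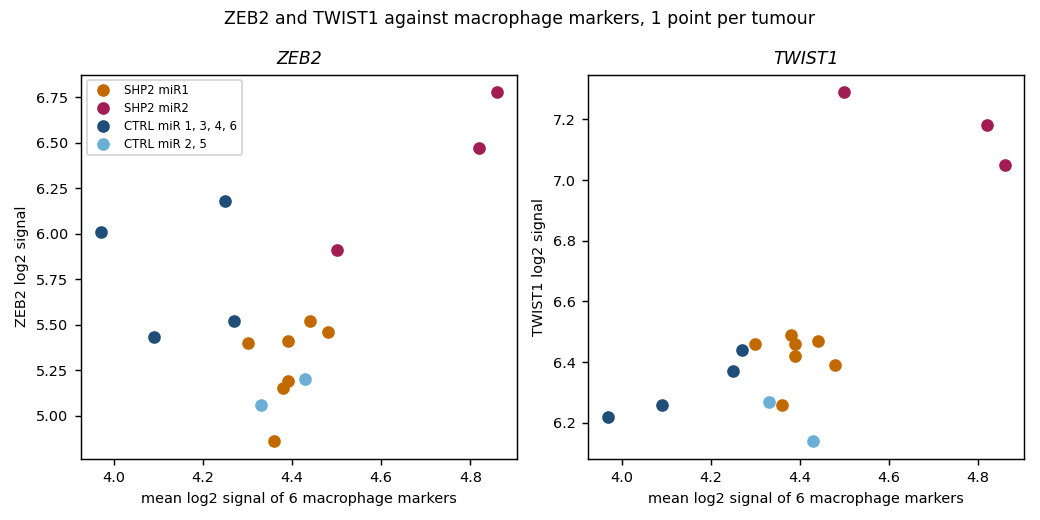
Log2 signal of ZEB2 (left) and TWIST1 (right) on the vertical axis against the mean log2 signal of 6 macrophage markers on the horizontal axis, with 1 point per tumour coloured by group and the controls divided into tumours 1, 3, 4, 6 and tumours 2, 5. SHP2 miR2 tumours 1 and 3 are highest on both axes for ZEB2, while TWIST1 lies between 7.05 and 7.29 in all 3 SHP2 miR2 tumours.

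SNAI1 and SNAI2 (SNAIL and SLUG), zinc finger repressors of CDH1, gave low signals. SNAI1 had 4.10, 4.14 and 4.16 with SHP2 miR2 and 3.77 to 4.12 (median 3.99) with SHP2 miR1. In the controls it had 3.65 to 4.18 (median 3.97), which covers both other groups. It lay below the lower quartile of its array in 3 of the 16 tumours. The difference was 0.049 ± 0.088 (SE, 95% interval -0.14 to 0.23, limma adjusted p = 0.849) with SHP2 miR1 and 0.19 ± 0.11 (SE, 95% interval -0.042 to 0.43, adjusted p = 0.188) with SHP2 miR2.

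SNAI2 varied among the controls. It had 4.34, 4.12 and 3.68 in SHP2 miR2 tumours and 3.6 to 4.19 (median 4.04) with SHP2 miR1. In control tumours 1, 3, 4 and 6 it had 4.19, 5.11, 4.61 and 4.87, and 3.89 and 4.16 in control tumours 2 and 5. Control tumours 3, 4 and 6 thus lay above every knockdown tumour, whereas control tumours 2 and 5 lay within their range. Against all controls the differences were -0.55 ± 0.17 (SE, limma adjusted p = 0.0794) with SHP2 miR1 and -0.43 ± 0.22 (SE, adjusted p = 0.143) with SHP2 miR2, and neither passed. The SHP2 miR1 difference did pass without control tumour 2 (-0.66, adjusted p = 0.0135) or control tumour 5 (-0.61, adjusted p = 0.0363). Both hairpins' differences passed with array weights (-0.67, adjusted p = 0.00397 with SHP2 miR1 and -0.52, adjusted p = 0.0455 with SHP2 miR2). With control tumours 2 and 5 alone they were -0.10 (adjusted p = 0.948) and 0.022 (adjusted p = 0.964). SNAI2 was below the lower quartile in 4 of the 10 knockdown tumours, and whether such values exceed background is not known.

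**Figure D2:**
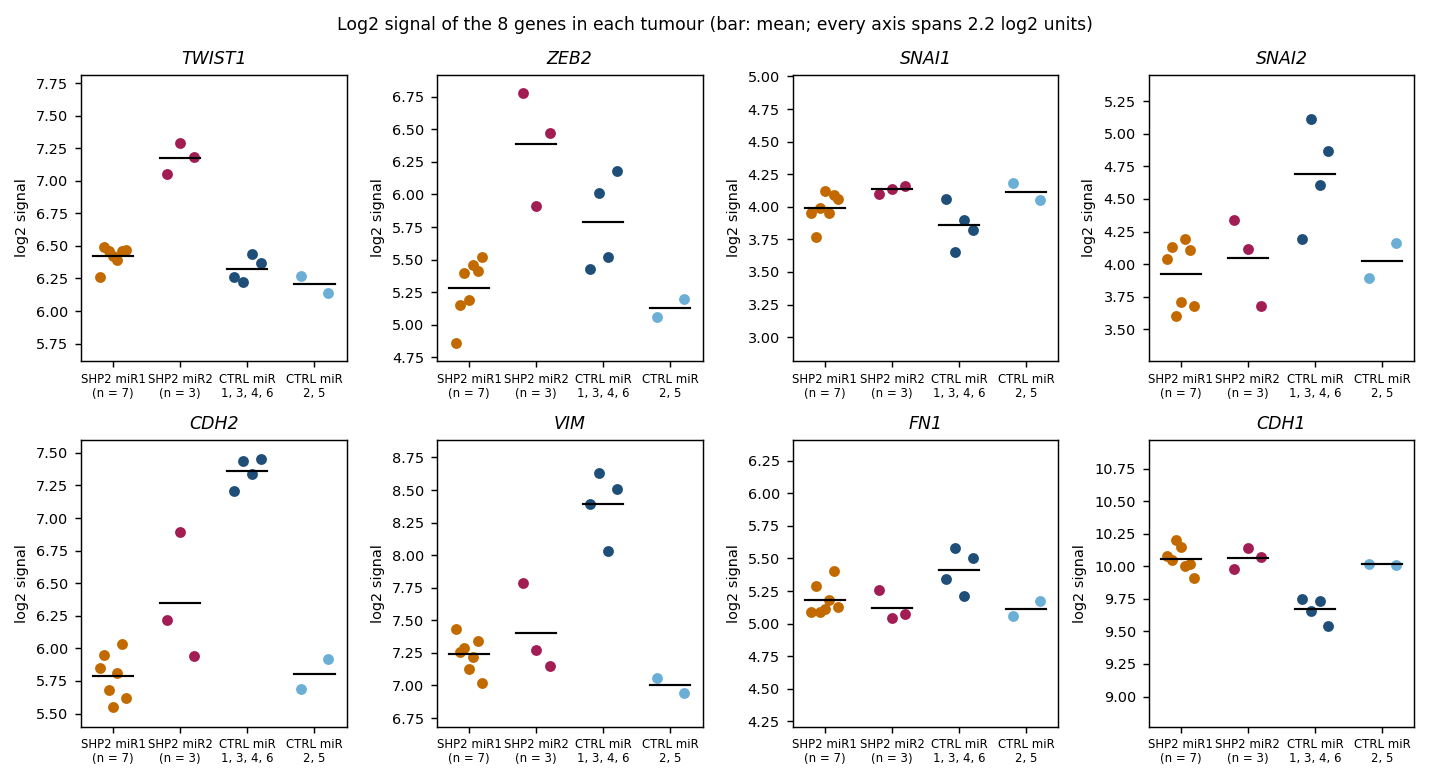
Log2 signal of 8 genes (vertical axis, with the same length of scale in every panel) in each tumour, with SHP2 miR1 and SHP2 miR2 left of control tumours 1, 3, 4, 6 and control tumours 2, 5, and a bar at each mean. TWIST1 is highest in SHP2 miR2 tumours, CDH2 and VIM are highest in control tumours 1, 3, 4 and 6, and SNAI1 and FN1 are nearly level.

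N-cadherin (CDH2), the adhesion molecule of neural and mesenchymal cells, was the only member called with SHP2 miR1. Its log2 signal was 5.55 to 6.03 (median 5.81) in SHP2 miR1 tumours. In control tumours 1, 3, 4 and 6 it was 7.21, 7.44, 7.34 and 7.45, and in control tumours 2 and 5 it was 5.69 and 5.92. Every SHP2 miR1 tumour lay below the first 4 controls and around the other 2. Against all controls CDH2 fell by 1.06 ± 0.26 on the log2 scale (SE, 95% interval -1.6 to -0.52, limma adjusted p = 0.0233), with 48% of the control signal remaining. Against control tumours 2 and 5 alone the difference was -0.023 ± 0.19 (SE, adjusted p = 0.992), and against control tumours 1, 3, 4 and 6 it was -1.58 ± 0.14 (SE, adjusted p = 3.08e-08). The last p-value is no separate test, since those 4 tumours were set apart by their expression. The call was also lost when control tumour 1 (-0.99, adjusted p = 0.0637), 3 (-0.94, adjusted p = 0.0757), 4 (-0.96, adjusted p = 0.0719) or 6 (-0.94, adjusted p = 0.0773) or SHP2 miR1 tumour 4 (-1.02, adjusted p = 0.0501) was left out, within set A (-1.02, adjusted p = 0.251) and within set B (-1.09, adjusted p = 0.335).

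With SHP2 miR2, CDH2 had 6.22, 6.89 and 5.94. These values lay above control tumours 2 and 5 and below the other 4 controls. The difference from all controls was -0.49 ± 0.33 (SE, 95% interval -1.18 to 0.19, limma adjusted p = 0.244), and -0.72 (adjusted p = 0.0483) without control tumour 2. With array weights the difference was -0.95 (adjusted p = 0.00423). Its sign depended on the controls, at 0.54 (adjusted p = 0.171) against tumours 2 and 5 and -1.01 (adjusted p = 8.48e-05) against tumours 1, 3, 4 and 6.

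Vimentin, the intermediate filament of mesenchymal cells, was, like CDH2, higher in control tumours 1, 3, 4 and 6 than in the other controls. VIM had 7.79, 7.27 and 7.15 in SHP2 miR2 tumours and 7.02 to 7.43 (median 7.26) in SHP2 miR1 tumours. Control tumours 1, 3, 4 and 6 had 8.39, 8.63, 8.03 and 8.51, and control tumours 2 and 5 had 7.06 and 6.94. Neither hairpin's difference from all controls passed, at -0.68 ± 0.23 (SE, limma adjusted p = 0.0977) with SHP2 miR1 and -0.53 ± 0.29 (SE, adjusted p = 0.167) with SHP2 miR2. Without control tumour 2 or without control tumour 5 both did pass (SHP2 miR1 -0.86 and -0.88, adjusted p = 0.0119 and 0.00657, SHP2 miR2 -0.70 and -0.72, adjusted p = 0.0493 and 0.0244). Both passed with array weights as well (-0.92, adjusted p = 0.000698 with SHP2 miR1 and -0.66, adjusted p = 0.0248 with SHP2 miR2). Relative to control tumours 2 and 5 alone the differences were 0.24 (adjusted p = 0.869) and 0.40 (adjusted p = 0.21).

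Fibronectin (FN1), a matrix glycoprotein bound by integrins, had 5.26, 5.04 and 5.07 with SHP2 miR2 and 5.09 to 5.40 (median 5.13) with SHP2 miR1. It had 5.34, 5.58, 5.21 and 5.50 in control tumours 1, 3, 4 and 6, and 5.06 and 5.17 in control tumours 2 and 5, so the groups overlapped. Differences were -0.13 ± 0.093 (SE, 95% interval -0.32 to 0.068, limma adjusted p = 0.538) with SHP2 miR1 and -0.19 ± 0.12 (SE, 95% interval -0.43 to 0.060, adjusted p = 0.223) with SHP2 miR2.

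E-cadherin (CDH1), the adherens junction protein of epithelia, ran opposite to CDH2 and VIM among the controls. CDH1 had 9.98, 10.14 and 10.07 in SHP2 miR2 tumours and 9.91 to 10.20 (median 10.05) in SHP2 miR1 tumours. In control tumours 1, 3, 4 and 6 it had 9.75, 9.66, 9.73 and 9.54, below every knockdown tumour. In control tumours 2 and 5 it had 10.02 and 10.01, within the range of the knockdown tumours. Against all controls the difference was 0.28 ± 0.088 (SE, 95% interval 0.092 to 0.46, limma adjusted p = 0.0777) with SHP2 miR1 and 0.28 ± 0.11 (SE, 95% interval 0.047 to 0.51, adjusted p = 0.0625) with SHP2 miR2. Both fall short of the threshold, and both passed without control tumour 2 (0.32, adjusted p = 0.023 with SHP2 miR1; 0.33, adjusted p = 0.0309 with SHP2 miR2) or without control tumour 5 (0.32 with each, adjusted p = 0.0238 and 0.0235). Both also passed with an intensity trend (0.28 each, adjusted p = 0.0441 with SHP2 miR1 and 0.0375 with SHP2 miR2) and with array weights (0.34, adjusted p = 0.00337 and 0.32, adjusted p = 0.0154). The SHP2 miR2 difference passed as well with quantile normalization (0.45, adjusted p = 0.00722) and with the array sets as a block (0.33, adjusted p = 0.0381). Set against control tumours 2 and 5 alone, they were 0.044 (adjusted p = 0.969) and 0.048 (adjusted p = 0.865).

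The difference among the controls was therefore a feature of several members. Control tumours 1, 3, 4 and 6 lay above the other 12 tumours in CDH2 (7.21 to 7.45 against 5.55 to 6.89) and VIM (8.03 to 8.63 against 6.94 to 7.79) and below them in CDH1 (9.54 to 9.75 against 9.91 to 10.20). Of all genes, 8.76% lay wholly above and 1.94% wholly below in those 4 tumours. The other 5 measured members overlapped. Mean differences of control tumours 1, 3, 4 and 6 from control tumours 2 and 5 were 1.55 for CDH2, 1.39 for VIM, 0.67 for SNAI2, 0.65 for ZEB2, 0.29 for FN1, 0.12 for TWIST1, -0.26 for SNAI1 and -0.35 for CDH1. A difference of 1 or more in either direction was found in 2.2% of all genes. ZEB1, the paralog of ZEB2, had 5.41 to 5.85 in control tumours 1, 3, 4 and 6, against 3.98 to 4.55 in the other 12 tumours. These values describe the 4 tumours and carry no test, since the tumours were set apart by their expression.

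Other genes moved with the same 4 controls. The mean of 8 measured markers of kidney progenitors and kidney lines was 5.56 to 5.82 in control tumours 1, 3, 4 and 6. Control tumours 2 and 5 had 4.21 and 4.37, and the 10 knockdown tumours had 4.17 to 4.37. IRS4 was also used above to describe these controls, and both IRS4 and HOXD10 were known beforehand to be high in 4 of them. The list mean is therefore a description and no separate evidence. In control tumours 1, 3, 4 and 6, IRS4, HOXD10, EYA1, LIN28B and WT1 (4.86 to 5.16, against 4.85 at most) lay above all other tumours. The kidney progenitor factors PAX2 (4.68 to 4.90, against 4.96 and 5.23 in control tumours 2 and 5), PAX8 (5.11 to 5.31, against 4.96 and 5.62) and LHX1 (5.26 to 5.38, against 5.54 and 5.59) did not. The luminal marker mean was 10.06 to 10.47 in control tumours 1, 3, 4 and 6, against 10.54 and 10.63 in control tumours 2 and 5. The part of other cells in the CDH2, VIM and CDH1 values was not tested.

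**Figure D3:**
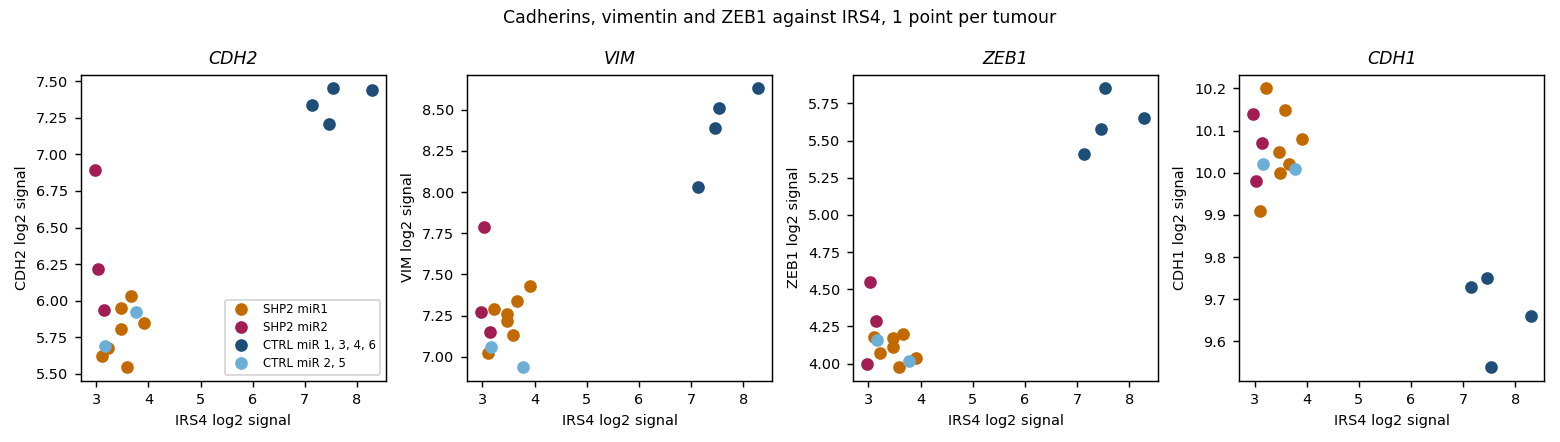
Log2 signals of CDH2, VIM, ZEB1 and CDH1 (vertical axes) against that of IRS4 (horizontal axis), 1 point per tumour coloured by group. Control tumours 1, 3, 4 and 6, with IRS4 at 7.14 or more, hold the highest CDH2, VIM and ZEB1 values and the lowest CDH1 values, and control tumours 2 and 5 lie among the knockdown tumours or, for VIM in control tumour 5 (6.94), just below them.

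In counts, 1 of the 8 measured members (CDH2) was called with SHP2 miR1 and it fell. Over all genes 4.76% were called in that comparison, 1.38% that rose and 3.38% that fell. With SHP2 miR2, 2 of 8 (TWIST1 and ZEB2) were called and both rose, beside 30% of all genes called, 11.8% that rose and 18.2% that fell, so the count is near the background. Of the calls over all genes with SHP2 miR2, 39.3% were rises, against 50.2% with quantile normalization and 24.1% once every array was centred on its own median. The median difference of the 8 members was -0.203 with SHP2 miR1 and 0.003 with SHP2 miR2, against 0.018 and 0.023 over all genes. With control tumours 2 and 5 alone, 0 members were called with SHP2 miR1 by limma, where 0.136% of all genes were called and 1106 genes had an unadjusted p under 0.05. With SHP2 miR2 the same 2 members, TWIST1 and ZEB2, were called there, beside 4.37% of all genes called and 1.39% that rose. With control tumours 1, 3, 4 and 6 alone, 5 members were called with SHP2 miR1 and 7 with SHP2 miR2, beside 18.8% and 45.9% of all genes. These counts are descriptive, since those controls were set apart by their expression.

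**Figure D4:**
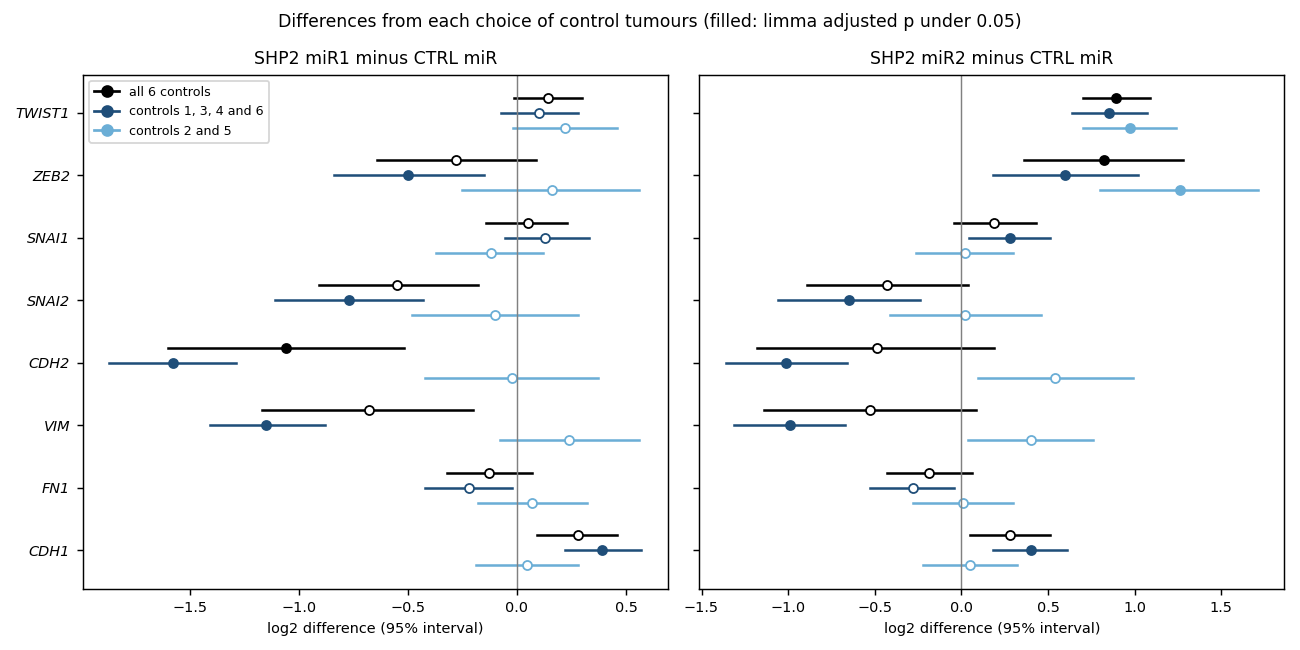
Log2 differences (points) with 95% intervals (lines) of SHP2 miR1 (left) and SHP2 miR2 (right) tumours from all 6 controls, from control tumours 1, 3, 4 and 6 and from control tumours 2 and 5, for 8 genes, filled where limma's adjusted p was under 0.05. TWIST1 stays between 0.85 and 0.97 with SHP2 miR2 whichever controls are used, whereas CDH2 with SHP2 miR1 lies at -1.58, -1.06 or -0.023.

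The hairpins were then compared with each other in the same fit, whose estimate of the spread includes the controls. PTPN11 was 0.46 ± 0.12 higher with SHP2 miR1 than with SHP2 miR2 (SE, limma adjusted p = 0.0115). With quantile normalization this did not pass (0.31, adjusted p = 0.075). The hairpin used and the PTPN11 signal left therefore cannot be told apart in this comparison. TWIST1 and ZEB2 were lower with SHP2 miR1 than with SHP2 miR2. TWIST1 had 6.26 to 6.49 against 7.05 to 7.29, and ZEB2 had 4.86 to 5.52 against 5.91 to 6.78. The differences, SHP2 miR1 minus SHP2 miR2, were -0.75 ± 0.092 (SE, limma adjusted p = 2.01e-05) for TWIST1 and -1.1 ± 0.22 (SE, adjusted p = 0.00187) for ZEB2. In a fit of the 10 knockdown tumours alone, adjusted p was 5.6e-05 for TWIST1 and 0.000189 for ZEB2. Both passed under all 27 alternatives, with -0.93 to -0.64 for TWIST1 and -1.34 to -0.9 for ZEB2. That makes 2 of 8 measured members called, both lower with SHP2 miR1, beside 22.5% of all genes called, 14.3% higher and 8.22% lower. Of all calls in this comparison 63.5% were higher with SHP2 miR1. The share was 52.7% with quantile normalization and 83.9% with median centring, which moved the median difference of all genes to 0.104 instead of -0.004. On centred values TWIST1 was at -0.64 (adjusted p = 0.000215) and ZEB2 at -0.99 (adjusted p = 0.0026). Within set B, the only set with both hairpins, TWIST1 was at -0.73 (adjusted p = 0.00573) and ZEB2 at -0.92 (adjusted p = 0.0492).

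CDH2 was at -0.57 between the hairpins. It did not pass in the fit with all controls (limma adjusted p = 0.19), and passed with control tumours 2 and 5 as the only controls (adjusted p = 0.0174), with tumours 1, 3, 4 and 6 as the only controls (adjusted p = 0.00977) and in a fit of the 10 knockdown tumours alone (adjusted p = 0.0165). Its ranges were 5.55 to 6.03 with SHP2 miR1 and 5.94 to 6.89 with SHP2 miR2. The spread that the fit pools for CDH2 was larger with all 6 controls, since the SD was 0.18 in SHP2 miR1 and 0.49 in SHP2 miR2 tumours, against 0.81 in the controls. For CDH1, with 10.06 ± 0.10 (SD, n = 7) with SHP2 miR1 and 10.06 ± 0.08 (SD, n = 3) with SHP2 miR2, the difference of -0.0041 came out above and below 0 across the scalings and fits, from -0.20 to 0.10.

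Epithelial genes from related lists were called between the hairpins in shares to be read beside the 14.3% of all genes higher and the 8.22% lower with SHP2 miR1. Once the genes of lowest mean signal were left out, 2835 of 12251 genes were higher and 939 lower, with a median difference of 0.13. The junction list median given next is near that value. Of 20 measured genes of epithelial junctions and polarity, 4 were higher with SHP2 miR1 than with SHP2 miR2 and 0 lower (median 0.157, against -0.004 over all genes and 0.13 without those of lowest mean). They were the desmosomal plakophilin PKP2 (1.0, limma adjusted p = 4.87e-06), the claudins CLDN8 (0.83, adjusted p = 0.00806) and CLDN7 (0.50, adjusted p = 0.0158), which seal tight junctions, and the desmosomal cadherin DSG2 (0.60, adjusted p = 0.0107). Of 15 factors of the epithelial state, 3 were higher and 1 lower with SHP2 miR1. The small GTPase RAB25 (0.49, adjusted p = 0.00492), the transcription factors GRHL2 (0.40, adjusted p = 0.0198) and KLF4 (0.51, adjusted p = 0.0273) were higher, and GRHL3 (-0.35, adjusted p = 0.0241) was lower. Of 9 genes of the E-cadherin complex and classical cadherins, vinculin (VCL) was higher (0.38, adjusted p = 0.0252), 0 were lower and 8 did not pass. Markers of other cell types moved in the same comparison. Of 6 macrophage markers 3 were lower with SHP2 miR1 and 0 higher (PTPRC -0.54, adjusted p = 0.00213), and of 10 fibroblast markers 3 were lower and 0 higher (COL3A1 -0.52, adjusted p = 0.025). Among the luminal markers the keratins KRT18 (0.49, adjusted p = 0.00907), KRT19 (0.56, adjusted p = 0.0112) and KRT8 (0.41, adjusted p = 0.0214) were higher and the luminal factor GATA3 was lower (-0.78, adjusted p = 0.000546). Their part in the junction gene results was not tested.

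In SHP2 miR2 tumours against all controls, the 20 junction genes held 2 rises and 4 falls. Both counts are near the shares of all genes, 11.8% that rose and 18.2% that fell. The falls included PKP2 (-0.78, limma adjusted p = 9.28e-05), DSG2 (-0.65, adjusted p = 0.00561) and CLDN8 (-0.72, adjusted p = 0.015). With control tumours 2 and 5 alone there were 0 rises and 3 falls, PKP2 (-1.0, adjusted p = 8.44e-05), CLDN8 (-1.24, adjusted p = 0.00154) and CLDN7 (-0.65, adjusted p = 0.0231). Over all genes 4.37% were called with those controls. Of the 18377 genes, 256 (1.39%) rose and 547 fell. The rises against all controls were EPCAM, an epithelial adhesion molecule (0.34, adjusted p = 0.047), and the polarity gene PARD6B (0.30, adjusted p = 0.0335). In SHP2 miR1 tumours 2 of the 20 rose and 0 fell against all controls, beside 1.38% of all genes that rose and 3.38% that fell. The rises were the desmoplakin gene DSP (0.34, adjusted p = 0.0282) and MARVELD2, a protein of tricellular junctions (0.35, adjusted p = 0.047). The list median was 0.192 there and -0.001 against control tumours 2 and 5, where 0 of the 20 passed.

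Of 22 measured mesenchymal effectors other than the members, 5 rose, 5 fell and 12 did not pass with SHP2 miR2 against all controls (median 0.140, against 0.023 over all genes), beside 11.8% of all genes that rose and 18.2% that fell. The matrix protein tenascin C (TNC, -1.04, limma adjusted p = 6.88e-05) and the collagen crosslinking enzyme LOX (-0.81, adjusted p = 0.00263) fell, while the gelatinase MMP2 (0.78, adjusted p = 0.000648) and the mesenchymal homeobox factor PRRX1 (0.80, adjusted p = 0.00126) rose. Relative to control tumours 2 and 5, where 256 of all 18377 genes rose and 547 fell, 0 of the 22 rose and 2 fell. The falls were TNC (-1.19, adjusted p = 0.000848) and S100A4 (-0.67, adjusted p = 0.0142), a calcium-binding protein of motile cells. With SHP2 miR1, 1 rose and 3 fell against all controls, the protease MMP14 (0.46, adjusted p = 0.0426), and ZEB1 (-1.01, adjusted p = 0.0216), the proteoglycan VCAN (-1.29, adjusted p = 0.032) and the fibronectin receptor chain ITGA5 (-0.43, adjusted p = 0.0273). Of the 22, 0 passed against control tumours 2 and 5 with that hairpin by limma.

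Partners of the cadherins and of fibronectin are read beside the same shares of all genes, 30% called with SHP2 miR2 and 4.76% with SHP2 miR1. With SHP2 miR2, 0 of the 9 genes of the E-cadherin complex rose and 2 fell, VCL (-0.40, limma adjusted p = 0.0167) and the afadin gene AFDN (-0.32, adjusted p = 0.0466). Of 10 fibronectin receptors and matrix partners, 2 rose and 2 fell, among them the transglutaminase TGM2 (0.46, adjusted p = 0.0137) and the fibrillin FBN1 (-0.56, adjusted p = 0.0352). With SHP2 miR1, 0 of the 9 passed, and 2 of the 10 fell, ITGA5 and the integrin chain ITGA4 (-0.61, adjusted p = 0.0293). With control tumours 2 and 5 as the only controls, 0 genes of either list passed with either hairpin by limma.

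In the TGF-beta pathway, which induces SNAIL, ZEB and TWIST factors in many epithelia, 0 of 13 genes rose and 2 fell with SHP2 miR2, beside 11.8% and 18.2% of all genes. They were the type I receptor TGFBR1 (-0.77, limma adjusted p = 0.000112; -0.87, adjusted p = 0.00227 against control tumours 2 and 5) and the SMAD co-repressor SKIL (-0.43, adjusted p = 0.016). With SHP2 miR1, 0 rose and 1 fell, the co-receptor TGFBR3 (-0.76, adjusted p = 0.0217). With control tumours 2 and 5 alone, 0 of the 13 passed with SHP2 miR1. TGFBR1 alone passed with SHP2 miR2, beside 4.37% of all genes called. Of 18 co-repressors and modifiers of SNAIL, TWIST and ZEB proteins, 0 rose and 0 fell with SHP2 miR1. With SHP2 miR2, 1 rose and 4 fell, among them KDM1A, the histone demethylase recruited by SNAI1 (-0.66, adjusted p = 0.00642), HDAC1 (-0.33, adjusted p = 0.0214) and the ubiquitin ligase subunit FBXL14 (0.40, adjusted p = 0.0162). Of the 18, 0 passed with either hairpin once control tumours 2 and 5 were the only controls.

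For the 5 members whose signal spanned 1 log2 unit or more, the genes with the most similar pattern over the 16 tumours were ranked by Pearson's r, given as a description since all genes share the same arrays. TWIST1 was followed most closely by the WNT ligand gene WNT11 (r = 0.97), the synaptic vesicle gene SYT1 (r = 0.96) and SSBP2 (r = 0.96), with 0.96 for each in the 12 tumours other than control tumours 1, 3, 4 and 6. ZEB2 was followed by DPYSL2 (r = 0.93), DOCK8, an exchange factor of immune cells (r = 0.89), and the RNA-binding protein gene CELF2 (r = 0.88), with 0.94, 0.94 and 0.95 in those 12 tumours. VIM was followed by the actin-binding girdin gene CCDC88A (r = 0.97), ACSL4 (r = 0.97) and CEP85L (r = 0.96), with 0.90, 0.70 and 0.71 in the 12. CDH2 was followed by the acetyltransferase gene KAT2B (r = 0.97), FSTL1 (r = 0.95) and the amino acid transporter gene SLC6A15 (r = 0.95), with 0.87, 0.72 and 0.86. SNAI2 was followed by SRSF12 (r = 0.92), LRRC9 (r = 0.90) and the glucose transporter gene SLC2A3 (r = 0.90), with 0.67, 0.62 and 0.66. For VIM, CDH2 and SNAI2 the value over all 16 tumours was thus higher than without control tumours 1, 3, 4 and 6. CCDC88A, for instance, had 6.62 to 7.39 in those 4 tumours against 3.72 to 5.18 in the other 12. Those 12 still hold the SHP2 miR2 tumours, in which TWIST1 and ZEB2 were higher. For TWIST1 and ZEB2, r was not computed without the SHP2 miR2 tumours, so likeness apart from the hairpin is not shown.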

How the data were processed

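Per the labels' protocols, 100 ng of total RNA from each tumour was labelled for the Affymetrix array HuGene-1_0-st-v1. The deposited table holds 1 log2 signal for each of 28869 transcript clusters and array, with the log2 scale inferred from values of 1.54 to 13.63. R 2.10 and oligo 1.8 are named in the submitters' processing notes; how background and normalization were handled is not given in the sources used here. Clusters with 1 symbol (19310) were kept and the cluster with the highest mean represented each of 18377 genes. No low values were removed. limma 3.58.1 in R 4.3.3 (lmFit, eBayes) was fitted to 3 groups, and tested on simulated data. Arrays have no depth, and their number limits precision.

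The members and gene lists were chosen with earlier results of these data known. All members were named whatever their values, with PTPN11, ZEB1, IRS4 and HOXD10, at most 4 called genes of a list with the smallest adjusted p, and the 3 genes most correlated with a member that spanned 1 log2 unit. Array sets were read from RNU4-1, RNU4-2, RPPH1, RMRP and SNORA65, since the labels give no batch. Alternatives were quantile normalization, median centring, leaving out the genes with the lowest means, array weights, an intensity trend, the replicate block, either kind of control tumour alone, a block for array set, set A or set B by itself (chosen after seeing the data), only the groups compared and each tumour left out. Plots were drawn with matplotlib 3.10.9.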

Additional observations from a re-analysis of the deposited data

Results flagged for a closer look

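TWIST1 in SHP2 miR1 replicate 1 had a log2 signal of 6.26, below the other 6 SHP2 miR1 tumours, which lay close together at 6.39 to 6.49. It was the only value that stood apart from its group among 16 combinations of a member with SHP2 miR1 or the controls, and about 1 in 20 such groups is flagged by chance. Without that tumour the TWIST1 difference of SHP2 miR1 from the controls was 0.17 (limma adjusted p = 0.277).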

How the results depend on the processing

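With array weights, called genes numbered 3371 (SHP2 miR1), 8868 (SHP2 miR2) and 7180 (between hairpins), against 874, 5508 and 4136, and called members 4 and 6 for the hairpins, against 1 and 2. An intensity trend with a robust prior called 2 members with SHP2 miR1. With the replicate block, 0 members were called with SHP2 miR1 (CDH2 -1.03, limma adjusted p = 0.0525) and 6773 genes between the hairpins; the block ended no other member's call. Same-numbered tumours share only a number, since the correlation of their deviations ran from -0.42 to 0.37 over 12 pairs. Control tumours 2 and 5 alone gave 25 and 803 called genes and 0 members with SHP2 miR1. They reversed ZEB2 (0.16), SNAI1 (-0.12), VIM (0.24) and FN1 (0.070) with SHP2 miR1, and SNAI2 (0.022), VIM (0.40), CDH2 (0.54) and FN1 (0.009) with SHP2 miR2. Control tumours 1, 3, 4 and 6 alone gave 3454 and 8435 genes and 5 and 7 members. The set as a block gave 2523 genes between the hairpins, and only the groups compared 3366 with SHP2 miR2. Within set A, 10 genes and 0 members were called with SHP2 miR1 and SNAI1 was at -0.003. Within set B, 1, 2550 and 972 genes were called, with 0 members for SHP2 miR1 and 1 for SHP2 miR2. Between the hairpins, SNAI1 (0.041) and SNAI2 (0.054) reversed with quantile normalization and CDH1 with median centring (0.10), array weights (0.021) and the replicate block (0.046). With 1 tumour left out, called genes were 233 to 1913 (SHP2 miR1), 2391 to 7739 (SHP2 miR2) and 1310 to 5923 (between hairpins), and members 0 to 4, 1 to 5 and 2 to 2. SNAI1 then ran from -0.009 to 0.096 with SHP2 miR1, and between the hairpins SNAI2 from -0.30 to 0.025, VIM from -0.29 to 0.036 and CDH1 from -0.044 to 0.032. The cause was not tested. The low signals of SNAI1 and SNAI2 limit what their differences can show.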
